A study of Oryza sativa with 12 samples.

Results

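Among the genes measured in rice shoots, 140 lay on opposite sides of the parental line T65 in 2 mutants that are both blocked in gibberellin signalling, gid1-3 and gid2-1. Of these, 47 were higher than T65 in gid1-3 and lower in gid2-1 (called gid1-3-high below), and 93 were lower in gid1-3 and higher in gid2-1 (called gid2-1-high). They were chosen from 17905 genes represented on an Affymetrix rice array, each by its brightest probe set. The mean log2 signal had to differ from T65 by at least 0.5 in both mutants, in opposite directions, and to reach 7.6 (a signal of 194) in at least 1 line, which 14359 genes did. The members are thus 0.975% of those 14359 genes. A further 10 genes met the thresholds and were left out by their names, among them heat shock, expansin and clock genes. Since the differences of gid1-3 and gid2-1 from T65 chose the members, they are given here as a description with no test. The slr1 arrays set no direction in the rule, although a high slr1 mean could meet the limit on level, and slr1 was tested against T65. Changes in slr1 are log2 differences from T65 fitted with limma across all probe sets, and were called at an adjusted p under 0.05.

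The arrays measured whole shoots, 5 weeks after germination, of plants from a greenhouse. The lines were gid1-3, gid2-1 and slr1 (k1001), all 3 in the Taichung 65 (T65) background, and T65 itself, with 3 biological replicates and 1 array each, 12 arrays in all. The labels give neither the nature of each mutation, nor whether slr1 (k1001) has lost or gained function, nor whether plants were pooled. Values are the deposited signals on a linear scale, and an array's background was taken as the 95th percentile of its reporter controls, 28.3 to 52.2 over the 12 arrays.

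Gibberellin is perceived by the soluble receptor GID1. The hormone-bound receptor binds the DELLA repressor SLR1, which the F-box protein GID2 then marks for degradation. Loss of either GID1 or GID2 gives dwarf plants that do not respond to gibberellin. In a gid2 mutant the receptor is still present, and in rice GID1 is known to be able to lower the activity of SLR1 by binding it, without degradation. Loss of SLR1 function gives tall, slender plants.

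**Figure D1:**
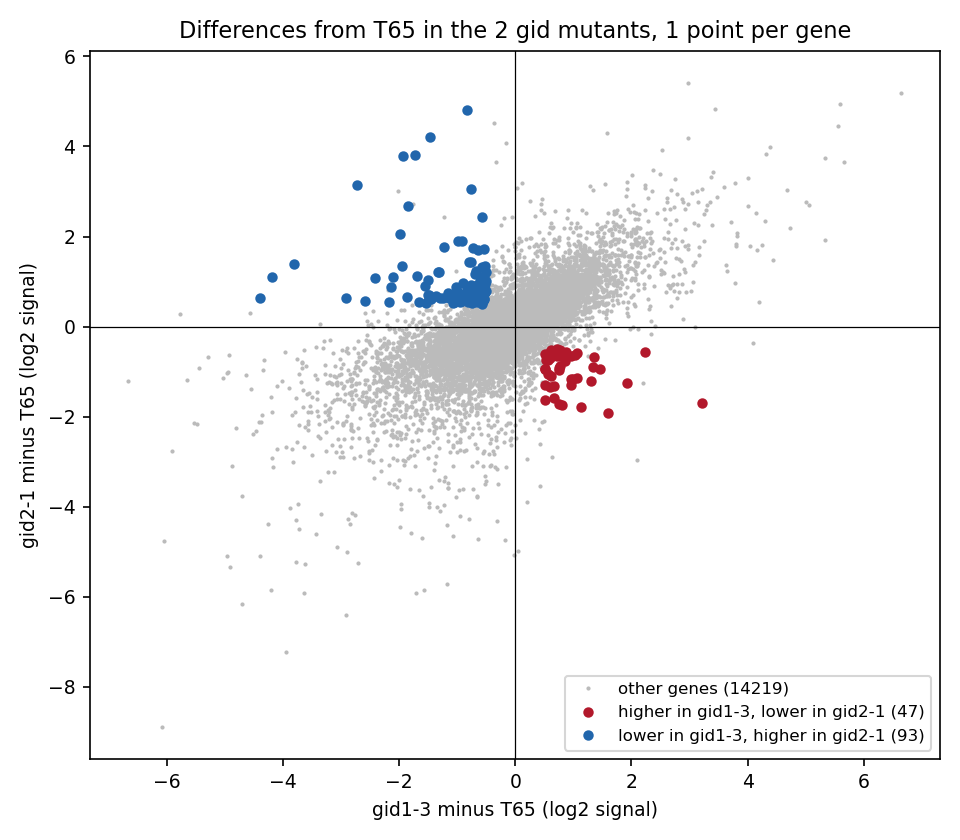
Mean log2 signal minus that of T65 in gid1-3 (x axis) and in gid2-1 (y axis), 1 point for each of the 14359 genes whose highest line mean reached 7.6. The 47 gid1-3-high genes lie at the lower right and the 93 gid2-1-high genes at the upper left of the cloud of other genes. Both differences are taken from the same T65 arrays.

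The gid1-3-high genes had a median log2 difference from T65 of 0.75 in gid1-3 and of -0.90 in gid2-1. The gid2-1-high genes had a median of -0.88 in gid1-3 and of 0.80 in gid2-1. Ranges are given for the members with neither T65 nor the lower line below the reporter level on all arrays. For 45 such gid1-3-high genes they were 0.50 to 2.23 in gid1-3 and -1.79 to -0.50 in gid2-1, and for 89 such gid2-1-high genes -3.81 to -0.50 in gid1-3 and 0.51 to 4.81 in gid2-1. Over all 14359 genes the medians were -0.04 in gid1-3 and -0.01 in gid2-1. Most members thus differed moderately: both differences were at least 1 (2-fold) in 6 of the 47 and 16 of the 93, and both were under 1 in 23 of the 47 and 36 of the 93.

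The arrays of the 3 lines separated in most members. All gid1-3 arrays lay above all T65 arrays, and all gid2-1 arrays below them, in 43 of the 47 gid1-3-high genes. That order held in 2.67% of the 14359 genes. The reverse order held in 84 of the 93 gid2-1-high genes and in 3.47% of the 14359 genes. Because the rule chose on these same differences, nothing is read from these counts. The line means of the gid1-3-high genes in T65 had a median of 1249 (range 23.2 to 6162), and those of the gid2-1-high genes a median of 337 (range 38.6 to 5195). T65 and gid2-1 were both below the reporter level on all 3 arrays for 2 of the 47 gid1-3-high genes, LOC4340598 and LOC4351985, so for them no difference between gid2-1 and T65 was resolved. Among the gid2-1-high genes gid1-3 was below that level on all 3 arrays for 4 genes, and T65 for none. In whole shoots, fewer cells of a type and less RNA per cell cannot be told apart.

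**Figure D2:**
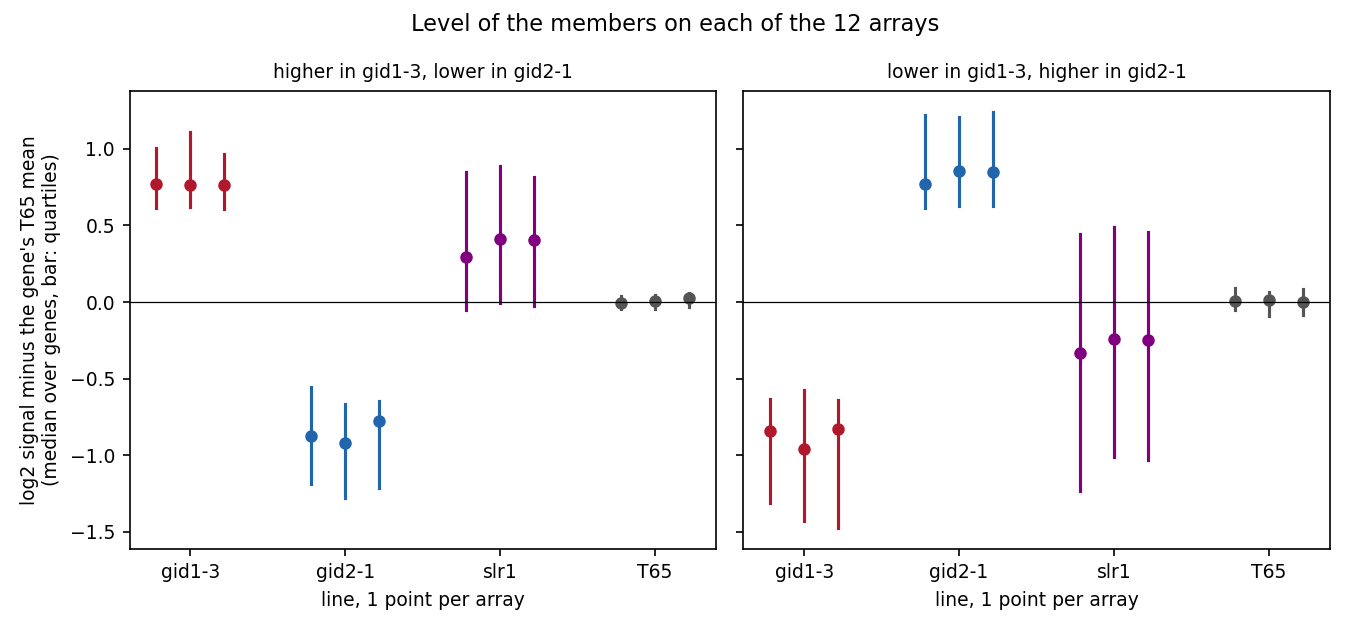
Level of the members on each array, as log2 signal minus the gene's T65 mean: points are medians over the genes of a set, bars run between the quartiles, and each line has 3 arrays. For the gid1-3-high genes (left) the medians were 0.76 to 0.77 on the gid1-3 arrays and -0.92 to -0.78 on the gid2-1 arrays. For the gid2-1-high genes (right) they were -0.96 to -0.83 on the gid1-3 arrays and 0.77 to 0.86 on the gid2-1 arrays.

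The medians over the members lay close together on the 3 arrays of each mutant, but such medians do not show the spread of single genes. The slr1 arrays had medians of 0.29 to 0.41 in the gid1-3-high genes, with quartiles from -0.05 to 0.89. In the gid2-1-high genes their medians were -0.33 to -0.24, with wider quartiles, from -1.24 to 0.49. The spread between replicates, as the median SD of log2 signals, was 0.07 in gid1-3, 0.16 in gid2-1, 0.09 in slr1 and 0.07 in T65 for the gid1-3-high genes. For the gid2-1-high genes it was 0.18 in gid1-3, 0.14 in gid2-1, 0.19 in slr1 and 0.12 in T65. For all 14359 genes it was 0.08, 0.12, 0.10 and 0.07 in those 4 lines. The deposited arrays share a trimmed mean of 500.1. The spiked controls were also used to set the scale of each array. The median log2 difference from T65 over all 57194 probe sets was then -0.22 in gid1-3, -0.15 in gid2-1 and -0.11 in slr1. For slr1 it was -0.02 with the deposited scale. This shift was smaller than the 0.5 that the rule asks for, so it could not reverse the sign of a member's difference. Only 27 of the 47 and 58 of the 93 still met the rule.

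The tissue was checked by marker genes. Of 6 green-leaf markers 3 were matched on the array: RBCS, the small subunit of Rubisco, CAB2R, a chlorophyll-binding protein, and PSAG, a photosystem I subunit. Their signals summed to 54397 to 59121 in gid1-3, 38101 to 50854 in gid2-1 and 45472 to 63828 in slr1, against 47316 to 51044 in T65. The markers moved in different ways. RBCS averaged 22678 ± 1534 in gid1-3, 22319 ± 4847 in gid2-1 and 20857 ± 5235 in slr1, against 19725 ± 1075 in T65 (SD, n = 3 each). CAB2R averaged 27132 ± 1118 in gid1-3, 21691 ± 1602 in gid2-1 and 28479 ± 4294 in slr1, against 23918 ± 916 in T65. PSAG, not a member since it was not 0.5 apart on both sides, averaged 6657 ± 320 in gid1-3, 814 ± 59.0 in gid2-1 and 5470 ± 350.3 in slr1, against 4946 ± 356 in T65. For the 3 matched markers of leaf senescence, the chlorophyll breakdown genes SGR and NYC1 and the isocitrate lyase gene ICL, the sums were 24475 to 26768 in gid1-3, 16093 to 19151 in gid2-1 and 4440 to 5283 in slr1, against 15644 to 17408 in T65. These sums hide different moves in the gid lines. SGR averaged 7468 in gid1-3 and 6167 in gid2-1, against 7172 in T65. NYC1 averaged 7803 and 8481, against 5838, and ICL 10521 and 2987, against 3604. All 3 had their lowest mean in slr1.

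Of the 47 gid1-3-high genes, 9 carried a gene name in the reference table, and they are described first. They include a regulator of chloroplast development, a chitin receptor, a chitinase and enzymes of metal, sulphur and nucleoside metabolism. Among them GLK1 and CEBIP were the furthest from T65 on both sides.

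GLK1 (LOC4340977) encodes a transcription factor of the GOLDEN2-like family, which activates genes of chloroplast development and photosynthesis. GLK1 had signals of 4084, 3899 and 4165 in gid1-3, 689, 741 and 693 in gid2-1 and 3789.9, 3528 and 4056 in slr1, against 1657, 1569 and 1696 in T65. Its log2 differences from T65 were 1.30 in gid1-3 and -1.21 in gid2-1. The 4 lines fell into 3 levels, with gid1-3 and slr1 overlapping at the top, T65 in the middle and gid2-1 lowest. In slr1 GLK1 rose relative to T65 by 1.21 ± 0.06 (SE, adjusted p = 3.2e-09). Of the leaf markers, PSAG and CAB2R had their lowest means in gid2-1 and RBCS in T65, and the part of green tissue in the values of GLK1 was not tested.

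CEBIP encodes a plasma-membrane protein that binds chitin fragments of fungal walls. Its probe set measured 2292, 2516 and 2484 in gid1-3, 602, 528 and 533 in gid2-1 and 2189.5, 2205 and 1981 in slr1, against 1269, 1139 and 1338 in T65. All gid1-3 and slr1 arrays lay above all T65 arrays, and all gid2-1 arrays below them, with log2 differences of 0.96 in gid1-3 and -1.17 in gid2-1. CEBIP rose in slr1 by 0.77 ± 0.08 (SE, adjusted p = 3.4e-06). Rcb4 (LOC4348631), which the gene table also lists as a chitinase, an enzyme that cuts chitin, had signals of 2927, 2875 and 2933 in gid1-3, 938, 913 and 800.1 in gid2-1 and 2114, 2314 and 2110.3 in slr1, against 1685, 1797 and 1705 in T65. The order of the lines was that of CEBIP, without overlap between T65 and any mutant. The differences of Rcb4 were smaller, 0.75 in gid1-3 and -0.97 in gid2-1, and its rise in slr1, 0.33 ± 0.07 (SE, adjusted p = 0.002), was lost when array medians or spiked controls set the scale.

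NAS1 (LOC4332608), a nicotianamine synthase that makes a chelator of iron and other metals, was dim in 3 of the lines. It had signals of 95.6, 70.9 and 95.1 in gid1-3, 89.0, 39.2 and 5.28 in gid2-1 and 282, 347 and 254 in slr1, against 49.5, 66.1 and 55.2 in T65. The gid2-1 arrays spanned the values of T65 and reached those of gid1-3, and 2 of them lay below the reporter level, so its lower mean in gid2-1 rests on those arrays. NAS1 passed the limit on level through slr1 alone, where all arrays were above all others. A high slr1 signal was thus a condition of its place here, and its log2 difference of 2.37 in slr1 is given with no test.

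SAT2 (LOC4331528), a serine acetyltransferase of cysteine synthesis, had signals of 1840.4, 1839 and 1753 in gid1-3, 749, 623 and 843 in gid2-1 and 1399, 1319.8 and 1254 in slr1, against 1207, 1209 and 1176 in T65. Its gid1-3 arrays were all above and its gid2-1 arrays all below those of T65, with log2 differences of 0.60 in gid1-3 and -0.71 in gid2-1. In slr1 SAT2 lay above T65 on every array, but by only 0.14 ± 0.09 (SE, adjusted p = 0.35), which was not called. URH2 (LOC4347891), a nucleosidase that splits uridine, had signals of 388, 413 and 418 in gid1-3, 198, 173 and 172 in gid2-1 and 253, 270.2 and 269 in slr1, against 267, 304 and 255 in T65. The slr1 and T65 arrays of URH2 overlapped, with a change of -0.06 ± 0.11 (SE, adjusted p = 0.83), while gid1-3 lay above and gid2-1 below both.

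ERDJ3B (LOC4337860), a DnaJ-type co-chaperone of the endoplasmic reticulum, had signals of 2975, 2827 and 2634 in gid1-3, 1087, 1199.9 and 1236 in gid2-1 and 1854, 1639 and 1634 in slr1, against 2105, 1873 and 1889 in T65. The slr1 arrays were below those of T65, with a change of -0.20 ± 0.08 (SE, adjusted p = 0.094), not called here but called under 3 of 21 other settings. BGLU22 (LOC4338560), a beta-glucosidase, had signals of 5615, 4935 and 5107 in gid1-3, 997, 1123 and 1464 in gid2-1 and 2337, 2234 and 1859 in slr1, against 3681, 3620.1 and 3670.2 in T65. Its log2 differences were 0.51 in gid1-3 and -1.63 in gid2-1. It was the only named gid1-3-high gene that fell in slr1, with a log2 change of -0.78 ± 0.12 (SE, adjusted p = 0.00015), to a level between gid2-1 and T65. PARP3 (LOC4329546), a poly(ADP-ribose) polymerase, had signals of 244, 316 and 118 in gid1-3, 196, 23.0 and 198 in gid2-1 and 184, 94.99 and 162 in slr1, against 180.2, 105 and 165 in T65. The arrays of all 4 lines overlapped for PARP3, and its place in the set rests on 1 dim gid2-1 array. In slr1 its change was -0.05 ± 0.64 (SE, adjusted p = 0.98).

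**Figure D3:**
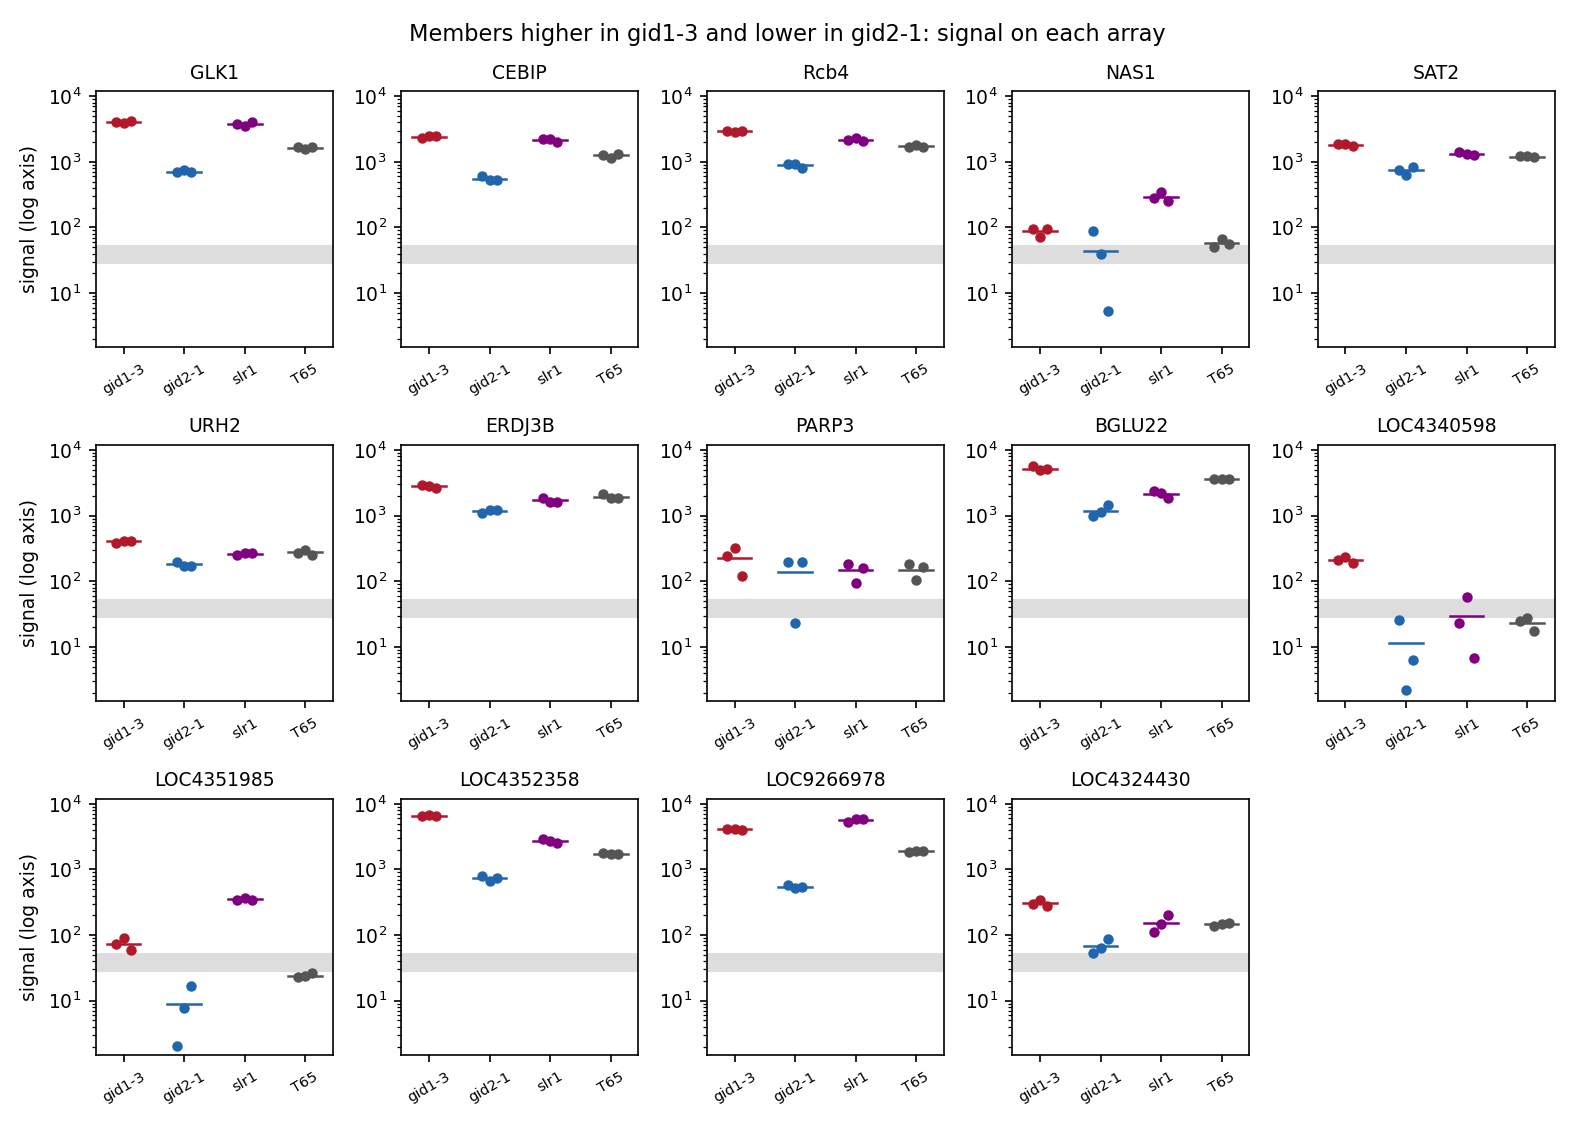
Signal on each array (points, log axis) and line mean (bars) of the 9 named gid1-3-high genes and the 5 unnamed ones furthest from T65 on both sides, with the range of the arrays' reporter levels in grey (28.3 to 52.2). GLK1, CEBIP and LOC9266978 show gid1-3 and slr1 above T65 and gid2-1 below it, while NAS1 and PARP3 show overlapping arrays.

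Of the unnamed gid1-3-high genes, the 5 with the largest differences on both sides follow. LOC4352358 had signals of 6552, 6652 and 6543 in gid1-3, 797, 669.6 and 743 in gid2-1 and 2873, 2702 and 2529.6 in slr1, against 1772, 1745 and 1699 in T65. By log2 means its gid1-3 level was 8.96-fold that of gid2-1, and it rose in slr1 by 0.63 ± 0.07 (SE, adjusted p = 5.8e-06), less than in gid1-3 (1.92). LOC9266978 measured 4207, 4122 and 3998 in gid1-3, 576, 524 and 532 in gid2-1 and 5358, 5910.4 and 5950.3 in slr1, against 1869, 1887 and 1884 in T65. Here slr1 was the highest line, with a rise of 1.61 ± 0.06 (SE, adjusted p = 8.1e-11), and all 4 lines were apart from each other. LOC4324430 gave 297, 344 and 279 in gid1-3, 53.1, 64.0 and 86.2 in gid2-1 and 112, 147 and 203 in slr1, against 136, 149.96 and 151 in T65. The T65 and slr1 arrays of LOC4324430 overlapped between the higher gid1-3 and the lower gid2-1 arrays, with a change in slr1 of 0.04 ± 0.23 (SE, adjusted p = 0.95).

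Of the pair near background, LOC4351985 had signals of 72.7, 89.5 and 59.8 in gid1-3, 2.02, 7.67 and 16.7 in gid2-1 and 341, 362 and 348 in slr1, against 22.7, 23.6 and 26.0 in T65. Both gid2-1 and T65 were below the reporter level on all arrays, so the gid1-3 signal was at least 1.94-fold that of T65 (1.86-fold that of gid2-1). The slr1 signal was at least 9.28-fold that of T65, but LOC4351985 reached the limit on level in slr1 alone, so a high slr1 signal was a condition of its place here and is given with no test. LOC4340598 gave 213, 230.4 and 190.0 in gid1-3, 25.4, 2.20 and 6.31 in gid2-1 and 23.4, 58.1 and 6.66 in slr1, against 24.9, 27.5 and 17.3 in T65. Only gid1-3 stood above background on all its arrays, at least 5.57-fold above T65 and 5.36-fold above gid2-1. In slr1 2 of 3 arrays of LOC4340598 were below the reporter level, and its change was -0.13 ± 0.84 (SE, adjusted p = 0.96).

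Of the 93 gid2-1-high genes, 10 carried a name. These include 4 regulators of development, namely 2 homeobox genes, a TCP factor and a floral MADS-box gene, and enzymes acting on cytokinin and auxin. VIT2, a transporter of iron into the vacuole, and PDC1, a pyruvate decarboxylase, were the furthest from T65 on both sides.

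OSH71 (LOC4337701) is a class I KNOX homeobox gene of the kind expressed in the shoot meristem and young stem. It had signals of 338, 331 and 329 in gid1-3, 773, 813 and 768 in gid2-1 and 351, 309 and 322 in slr1, against 525, 532 and 512 in T65. Replicates were close, and gid1-3 and slr1 overlapped below T65 while gid2-1 lay above it (-0.65 in gid1-3 and 0.58 in gid2-1). OSH71 fell in slr1, with a log2 change of -0.68 ± 0.08 (SE, adjusted p = 1.1e-05). The 4 matched markers of meristem and stem, OSH1, OSH6, OSH43 and OSH71, summed to 951 to 1043 in gid1-3, 2198 to 2424 in gid2-1 and 899 to 992 in slr1, against 1991 to 2163 in T65. Without OSH71 the other 3 summed to 619 to 705 in gid1-3, 1424 to 1656 in gid2-1 and 576 to 649 in slr1, against 1466 to 1630.1 in T65. The sums were thus below T65 in gid1-3 and slr1 and overlapped it in gid2-1, but the genes moved differently. OSH1, the largest part, averaged 436 in gid1-3, 1106 in gid2-1 and 369 in slr1, against 1214 in T65. OSH6 averaged 183 in gid1-3, 387 in gid2-1 and 154 in slr1, against 229.6 in T65. OSH43 averaged 28.9 in gid2-1 and 99.2 in slr1, against 101.8 in T65. Its gid1-3 and gid2-1 means lay within the range of the reporter levels. The part of the shoots' makeup in the values of OSH71 was not tested.

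HOS66 (LOC4331449), another KNOX-type homeobox gene, had signals of 1121, 1040.1 and 1144 in gid1-3, 3002, 3356 and 2821 in gid2-1 and 3294, 3309 and 3521 in slr1, against 2181, 1925 and 2126 in T65. Unlike OSH71 it rose in slr1, by 0.70 ± 0.07 (SE, adjusted p = 4.3e-06), to the level of gid2-1. Only gid1-3 was below T65 (-0.91 in gid1-3 and 0.56 in gid2-1). PCF7 (LOC4325137), a TCP transcription factor, had signals of 1319.7, 1424 and 1582 in gid1-3, 2868, 4326 and 2913 in gid2-1 and 2548, 2875 and 3657 in slr1, against 2201, 2109.7 and 2547 in T65. The slr1 arrays of PCF7 all lay above T65 by a little, with a change of 0.39 ± 0.15 (SE, adjusted p = 0.09), not called here but called under 4 of 21 other settings.

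MADS16 (LOC4342047, also named SPW1) is a floral organ identity gene of lodicules and stamens. In these shoots it had signals of 280.2, 306 and 327 in gid1-3, 898, 672 and 813 in gid2-1 and 349.9, 331 and 361 in slr1, against 362, 561 and 421 in T65. The gid1-3 arrays were below and the gid2-1 arrays above all T65 arrays (-0.54 in gid1-3 and 0.84 in gid2-1). The slr1 arrays were just below those of T65, with a change of -0.34 ± 0.14 (SE, adjusted p = 0.12). All 8 inflorescence and flower markers were matched, and MADS6 and MADS7 were below the reporter level on all 12 arrays. The 7 markers other than MADS16 summed to 293 to 344 in gid1-3, 304 to 393 in gid2-1 and 243 to 295 in slr1, against 283 to 293 in T65; with MADS16 the sums were 605 to 624 in gid1-3, 1048 to 1291 in gid2-1 and 575 to 656 in slr1, against 645 to 854 in T65.

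CKX5 (LOC4327887), a cytokinin dehydrogenase that breaks cytokinins down, had signals of 185, 245 and 200.2 in gid1-3, 760.2, 774 and 745 in gid2-1 and 703, 661 and 593 in slr1, against 359.5, 301 and 351 in T65. Its gid2-1 and slr1 arrays were all above and its gid1-3 arrays all below those of T65, by -0.69 in gid1-3 and 1.18 in gid2-1. CKX5 rose in slr1 by 0.95 ± 0.11 (SE, adjusted p = 1.5e-05). ILL6 (LOC4341907), a member of the family of hydrolases that free auxin from its amino acid conjugates, had signals of 222, 424 and 235 in gid1-3, 889.6, 881 and 1010.0 in gid2-1 and 794, 690.2 and 819.5 in slr1, against 400.4, 408 and 387 in T65. One gid1-3 array of ILL6 was above all T65 arrays, so gid1-3 and T65 overlapped. Its rise in slr1 was 0.94 ± 0.18 (SE, adjusted p = 0.0012).

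NEK3 (LOC4342542), a NIMA-related protein kinase, had signals of 116, 115 and 117 in gid1-3, 276, 245 and 217 in gid2-1 and 452, 359 and 302 in slr1, against 144, 178 and 199.9 in T65. The 3 mutants were all apart from T65 in NEK3, gid1-3 below it and both others above. NEK3 rose more in slr1, by 1.08 ± 0.17 (SE, adjusted p = 0.0002), than its difference in gid2-1 (0.51). The gene listed only as cap2 (LOC4331843) had signals of 201, 143 and 242 in gid1-3, 1037, 1023 and 1137 in gid2-1 and 246, 317 and 322 in slr1, against 371, 342 and 252 in T65. Its gid2-1 arrays stood far above the rest (1.75), gid1-3 lay below T65, and slr1 overlapped T65 with a change of -0.12 ± 0.18 (SE, adjusted p = 0.78).

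PDC1 (LOC4339066), which carries out the first step of ethanol fermentation, had signals of 50.6, 14.5 and 64.1 in gid1-3, 338, 341 and 314 in gid2-1 and 188, 137 and 129.7 in slr1, against 123, 157 and 194 in T65. With 1 of 3 gid1-3 arrays below the reporter level, the size of its difference there is loosely measured (-2.10 in gid1-3 and 1.09 in gid2-1). The slr1 and T65 arrays of PDC1 overlapped, with a change of -0.05 ± 0.41 (SE, adjusted p = 0.96). VIT2 (LOC4346978) gave 514, 381 and 403 in gid1-3, 3288, 1989.8 and 2327 in gid2-1 and 403, 348 and 275 in slr1, against 1269, 1292 and 1103 in T65. VIT2 was above T65 on all gid2-1 arrays and below it on all others, by -1.51 in gid1-3 and 1.02 in gid2-1. It fell in slr1, with a log2 change of -1.85 ± 0.17 (SE, adjusted p = 1.4e-06), to below the mean of gid1-3.

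**Figure D4:**
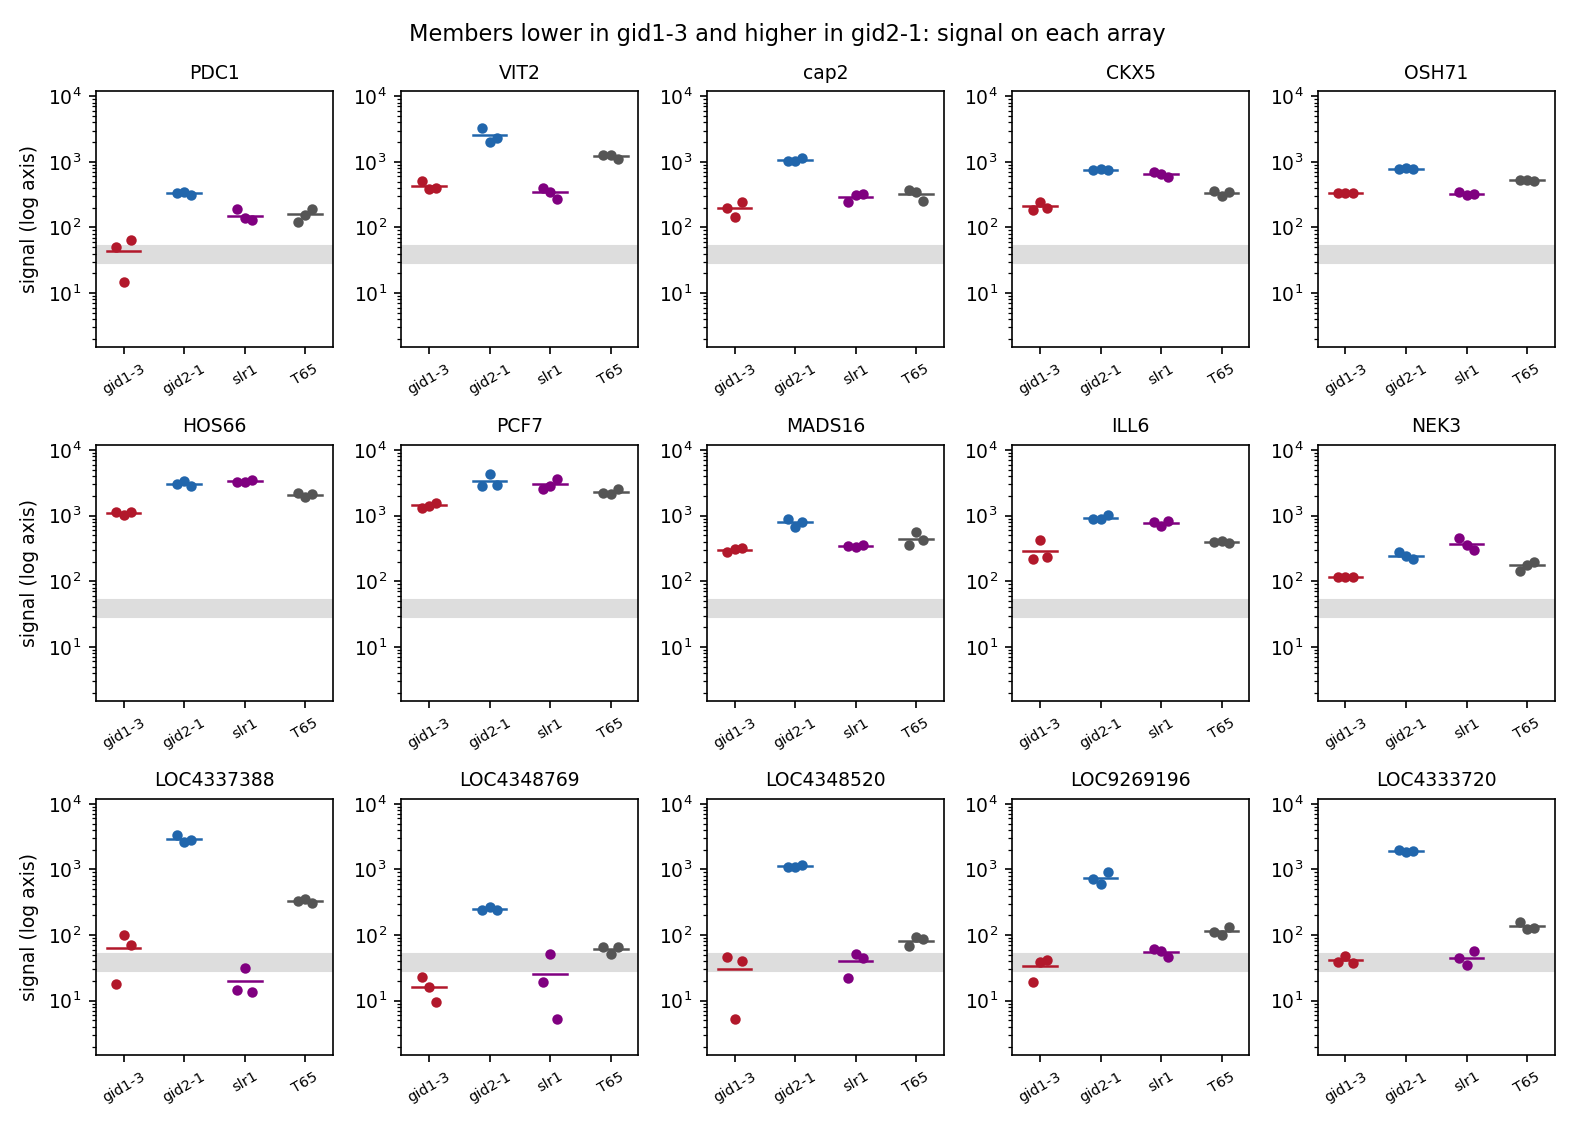
Signal on each array (points, log axis) and line mean (bars) of the 10 named gid2-1-high genes and the 5 unnamed ones furthest from T65 on both sides, with the range of the arrays' reporter levels in grey (28.3 to 52.2). VIT2, OSH71 and LOC4337388 show slr1 low together with gid1-3, whereas CKX5, HOS66, ILL6 and NEK3 show slr1 high together with gid2-1.

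The 5 unnamed gid2-1-high genes with the largest differences on both sides were close to background in gid1-3, with gid2-1 the highest line in each. LOC4337388, whose probe set can bind related transcripts, had signals of 17.8, 101 and 70.5 in gid1-3, 3352, 2643 and 2797 in gid2-1 and 14.6, 31.7 and 13.7 in slr1, against 326, 355 and 313 in T65. By log2 means its gid2-1 level was 58.1-fold that of gid1-3, where 1 of 3 arrays was below the reporter level. In slr1 all arrays were below that level, so that T65 was at least 8.94-fold above slr1, with a fitted change of -4.16 ± 0.47 (SE, adjusted p = 1.1e-05). LOC4348520 measured 45.6, 5.31 and 40.6 in gid1-3, 1108, 1108 and 1177 in gid2-1 and 22.2, 52.1 and 44.9 in slr1, against 67.8, 93.2 and 86.5 in T65. For LOC4348520 2 of 3 arrays of gid1-3 and of slr1 were below the reporter level, and only gid2-1 and T65 were above it on all arrays. Its change in slr1 was -1.13 ± 0.61 (SE, adjusted p = 0.26).

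LOC4333720 gave 38.6, 47.9 and 37.2 in gid1-3, 1968, 1859 and 1904 in gid2-1 and 44.1, 35.1 and 56.5 in slr1, against 158, 125 and 129 in T65. All gid1-3 and slr1 arrays were below and all gid2-1 arrays above those of T65 in LOC4333720, which fell in slr1, with a log2 change of -1.62 ± 0.19 (SE, adjusted p = 1.6e-05). In gid1-3 2 of its 3 arrays were below the reporter level, and its slr1 arrays were near that level. LOC9269196 had signals of 19.2, 39.2 and 42.4 in gid1-3, 705, 611 and 906 in gid2-1 and 61.9, 57.0 and 45.8 in slr1, against 112, 99.6 and 132 in T65. It had the same order of lines, and its change in slr1, -1.06 ± 0.29 (SE, adjusted p = 0.015), was lost without replicate 3 of T65 or of slr1. For LOC9269196 2 of 3 gid1-3 arrays and 1 of 3 slr1 arrays were below the reporter level. LOC4348769 had signals of 23.2, 16.01 and 9.67 in gid1-3, 243, 269 and 245 in gid2-1 and 19.2, 51.5 and 5.20 in slr1, against 66.5, 51.3 and 66.2 in T65. Its gid1-3 arrays were all below the reporter level, so T65 was at least 1.47-fold above gid1-3. In slr1 2 of 3 arrays of LOC4348769 were below that level, so the size of its change there, -1.82 ± 0.64 (SE, adjusted p = 0.06), is loosely measured. The change was not called here but called under 3 of 21 other settings.

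Beyond the rule for named genes, a few extremes were picked after their values were seen. The probe set of LOC4350388 can bind related transcripts. LOC4350388 had the lowest log2 difference in gid1-3 (-3.81) among gid2-1-high genes with a gid1-3 array above the reporter level. It averaged 97.3 ± 20.5 in gid1-3, 3567 ± 349 in gid2-1 and 257 ± 23.0 in slr1, against 1354 ± 137 in T65 (SD, n = 3 each). For LOC4329723 and LOC4339187 all gid1-3 arrays were below that level, so only bounds can be given: T65 was at least 8.25-fold above gid1-3 for LOC4329723 and at least 3.07-fold for LOC4339187. The member furthest above T65 in gid2-1 was LOC4352254, with 63.0 ± 8.79 in gid1-3, 3138 ± 216 in gid2-1 and 37.5 ± 9.28 in slr1, against 112 ± 4.22 in T65. LOC4337686 stood out by slr1, with 188 ± 13.6 in gid1-3, 415 ± 35.5 in gid2-1 and 1242 ± 117 in slr1, against 275 ± 0.562 in T65, a rise in slr1 of 2.17 ± 0.10 (SE, adjusted p = 7.3e-10).

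The threshold of 0.5 had genes close to it on both sides. In the gid1-3-high direction the 3 genes nearest inside, LOC4334592, LOC4343523 and LOC4328086, had smaller absolute differences of 0.5005, 0.5047 and 0.5081, and the 3 nearest outside, LOC4338354, ADC1 and LOC4341421, had 0.4941, 0.4907 and 0.4904. In the gid2-1-high direction LOC4328182, NEK3 and ILL6 had 0.5017, 0.5051 and 0.5059 inside, and LOC4339109, OsTBL11 and BUI1 had 0.4995, 0.4970 and 0.4952 outside.

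The slr1 arrays answer where the mutant of the DELLA repressor itself lies. Of the 47 gid1-3-high genes, 25 rose in slr1, 7 fell and 15 were not called (limma, adjusted p under 0.05). Rises were called in 20.7% and falls in 26.8% of the 14359 genes whose level could have made them members, and in 9.1% and 10.8% of all 57194 probe sets. The shares among the gid1-3-high genes were 53.2% and 14.9%. NAS1 and LOC4351985, which reached the limit on level only in slr1, are among the 25 rises. Without them 23 of 45 rose (51.1%) and 7 fell (15.6%), where 20.4% rose and 27.1% fell of the 14206 genes that reached the limit in gid1-3, gid2-1 or T65. Of the 93 gid2-1-high genes, 39 fell (41.9%), 23 rose (24.7%) and 31 were not called. The share that rose is near the background of 20.7%, and the share that fell lies above that of 26.8%. The test shares the T65 arrays with the rule that chose the members.

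**Figure D5:**
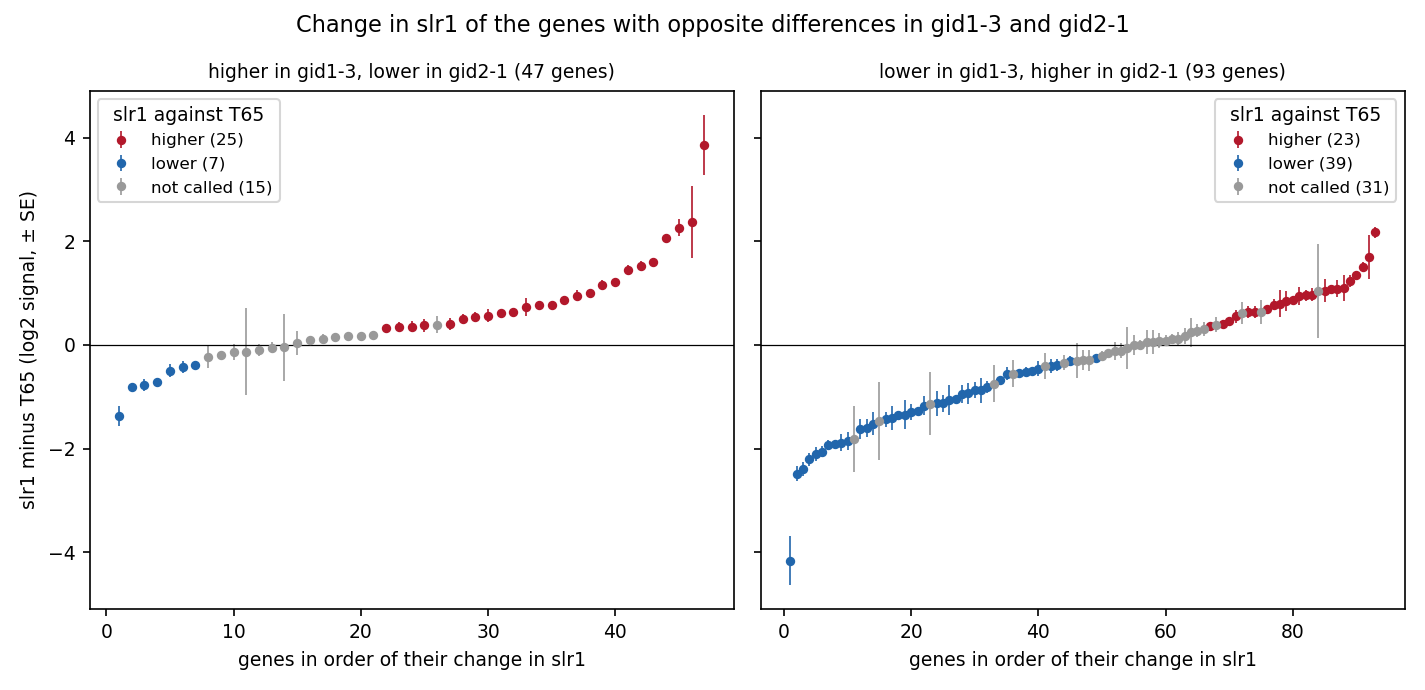
Log2 change in slr1 relative to T65, with its SE from limma, of each of the 47 gid1-3-high genes (left) and the 93 gid2-1-high genes (right), in order of the change and coloured by the call. In the left panel 25 genes rose and 7 fell, and in the right panel 23 rose and 39 fell.

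The median log2 change in slr1 was 0.35 in the gid1-3-high genes and -0.30 in the gid2-1-high genes, against -0.06 over the 14359 genes and -0.02 over all probe sets. Among the gid1-3-high genes the 25 that rose had a median of 0.78 and the 7 that fell one of -0.72. Among the gid2-1-high genes the 39 that fell had a median of -1.17 and the 23 that rose one of 0.94. Changes of at least 2-fold were called for 9 rises and 1 fall in slr1 among the gid1-3-high genes, and for 9 rises and 24 falls among the gid2-1-high genes. In shares these are 19.1% and 2.13% of the 47, and 9.68% and 25.8% of the 93, where 3.59% of the 14359 genes rose and 3.23% fell by that much. NAS1 and LOC4351985 are among the 9 rises of the gid1-3-high genes, so the share of 19.1% depends in part on the rule. Without them the median change in slr1 of the other 45 genes was 0.35.

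The level of slr1 was also set against the gid lines, without T65. It was nearer to gid1-3 than to gid2-1 in 32 of the 47 gid1-3-high genes (68.1%) and in 52 of the 93 gid2-1-high genes (55.9%), as it was in 46.0% of the 14359 genes. It lay between the gid lines in 33 of the 47 and 58 of the 93, above both in 11 and 15, and below both in 3 and 20. Over the 14359 genes it lay between them in 21.5%, above both in 35.9% and below both in 42.7%. The rule holds the gid lines apart in every member, so these places depend on it. With T65 counted as well, slr1 was nearest to gid1-3 in 21 of the 47 gid1-3-high genes (44.7%), to gid2-1 in 5 (10.6%) and to T65 in 21 (44.7%). Among the gid2-1-high genes slr1 was nearest to gid1-3 in 36, to gid2-1 in 27 and to T65 in 30, so no single order of the lines described them. Those are 38.7%, 29.0% and 32.3% of the 93, against 25.2%, 26.3% and 48.5% of the 14359 genes. GLK1, CEBIP, OSH71 and VIT2 are examples of slr1 near gid1-3, and CKX5, HOS66, ILL6 and NEK3 of slr1 near gid2-1.

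Other probe sets of the same genes were measured on the same RNA. For 7 of the 47 gid1-3-high genes there were 8 further probe sets, all with the signs of the member in both mutants, and 5 with differences of at least 0.5. For 18 of the 93 gid2-1-high genes there were 26, of which 15 had both signs and 10 also the size. Of the 10 whose highest line mean reached 7.6, 9 had both signs, so most of the others that did not were dim. Among all members 6 of the 47 and 10 of the 93 rested on probe sets that can bind related transcripts.

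Gene lists matched by symbol were too short, at so low a share of members, for their counts to be read as a result. Of 19 such lists, 17 had no member, with 8 to 65 of their genes reaching the level of the rule, among them gibberellin synthesis and signalling (0 of 17), jasmonate (0 of 31), auxin (0 of 49), photosynthesis (0 of 16) and wall enzymes (0 of 34). The cytokinin list had 1 of 27, CKX5, and that of transcription factors 1 of 105, MADS16, where members were 0.975% of the 14359 genes. The lists are not complete: GLK1, PCF7, OSH71 and HOS66 are regulators that the list of transcription factors lacks, ILL6 is not in the auxin list, NEK3 not in that of kinases and VIT2 not in that of transporters. Moreover 121 of the 140 members have no name to match. The 10 genes left out by name, clock genes among them, could not count as members of a list. Of the root markers 4 were matched, with PHT1-11 below the reporter level on all arrays. They summed to 781 to 842 in gid1-3, 1885 to 2115 in gid2-1 and 916 to 953 in slr1, against 726 to 771 in T65. The list was highest in gid2-1, mostly through NIP2-1, a silicon channel, and the part of root tissue in the values of the gid2-1-high genes was not tested.

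Some members were neighbours in the reference gene table. There were 4 adjacent pairs, each within 1 set. How many such pairs other genes would give was not worked out, so nothing is read from this count. LOC4333719 and LOC4333720, both gid2-1-high, also both fell in slr1. LOC4333719 averaged 859 ± 132 in gid1-3, 6066 ± 607 in gid2-1 and 599 ± 51.6 in slr1, against 2775 ± 384 in T65 (SD, n = 3 each), and its change in slr1 was -2.21 ± 0.12 (SE, adjusted p = 4.6e-09). LOC4324968 next to LOC9269196 averaged 44.3 ± 13.9 in gid1-3, 345 ± 44.1 in gid2-1 and 76.5 ± 12.6 in slr1, against 101 ± 10.2 in T65. Unlike LOC9269196 it was not called in slr1, with a change of -0.41 ± 0.24 (SE, adjusted p = 0.32). LOC4343986 and LOC4343987 were gid2-1-high as well, with -1.56 in gid1-3 and 0.89 in gid2-1 for LOC4343986 and -1.87 in gid1-3 and 0.66 in gid2-1 for LOC4343987. In slr1 this pair went opposite ways. LOC4343986 changed by 0.62 ± 0.21 (SE, adjusted p = 0.052), which was not called, and LOC4343987 by -0.26 ± 0.07 (SE, adjusted p = 0.011), a called fall. The pair LOC4325830 and LOC4325831, gid1-3-high, both fell in slr1, with log2 changes of -0.42 ± 0.12 (SE, adjusted p = 0.016) and -0.50 ± 0.12 (SE, adjusted p = 0.0081). Their probe sets carry 1 cluster number, and that of LOC4325830 can bind related transcripts, so they may share signal. A further pair, LOC4343212 and LOC4343214, stood 2 places apart with opposite directions: LOC4343212 differed from T65 by -1.03 in gid1-3 and 0.54 in gid2-1, and LOC4343214 by 1.34 in gid1-3 and -0.90 in gid2-1.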

How the data were processed

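Per the labels, total RNA from shoots was extracted with a column kit and turned into biotinylated cRNA for an Affymetrix rice array. The authors deposited 1 linear intensity per probe set. The software and any background correction are not given in the sources used here. Every array had a 2% trimmed mean of 500.1.

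Of 57381 probe sets, 187 controls were left out. Signals were raised to at least 1 before log2. Genes came from the array's annotation where a probe set had a single one (22436 probe sets, 17905 genes), and names from the reference gene table. The brightest probe set stood for a gene. The members, name lists and markers were chosen with earlier results of these data known. Genes named PRR, HSP, EXP (with EXPA and EXPB), SAPK, BURP, NAC or GRXC with a number, and LHY, GI, PCL1, BBD1 and CLPB-M, were left out.

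With limma 3.58.1 (R 4.3.3), lmFit gave each line its own mean over the 12 arrays for all 57194 probe sets, and eBayes used trend = TRUE; this was tested on simulated data. The contrast was slr1 minus T65, adjusted by Benjamini and Hochberg over all of them. The named genes were all members with a name and, of the others, the 5 in each direction with the largest smaller difference. Where all 3 arrays of a line were below the reporter level, a fold is given as at least the ratio to that level. Replicates are biological per the labels, and nothing says that the numbers pair them. Alternatives were other scalings, filters, thresholds and probe-set choices, the fit's settings, and leaving out each array. The number of arrays limits the precision.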

Additional observations from a re-analysis of the deposited data

How the results depend on the processing

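The number of gid1-3-high genes was 40 to 63 and that of gid2-1-high genes 64 to 91 under 3 other scalings (quantiles, array medians or spiked controls), with log2(signal + 16), with all probe sets of a gene averaged, and without probe sets that can cross-hybridize. With both differences at least 1 there were 6 and 16, and with no minimum for the level 95 and 228. Scaled by medians, 47 of the 47 and 64 of the 93 members remained. Leaving out 1 array gave 44 to 48 gid1-3-high and 91 to 101 gid2-1-high genes, and 33 of the 47 and 59 of the 93 met the rule without each array in turn. For slr1 against T65, a threshold of 2-fold left 9 of 25 rises and 1 of 7 falls in the gid1-3-high genes, and 9 of 23 rises and 24 of 39 falls in the gid2-1-high genes. The other settings kept these 4 counts within 1.5 times. Leaving out 1 array gave 20 to 28 rises and 6 to 8 falls in the gid1-3-high genes, and 22 to 25 rises and 33 to 39 falls in the gid2-1-high genes. With the replicate block they were 24 rises and 7 falls, and 24 rises and 37 falls. Same-numbered arrays of different lines had correlations of deviations from -0.31 to 0.23, with 6 of 18 pairs over 0.1. Arrays with other numbers had -0.35 to 0.36, with 5 of 36 pairs over 0.1. With 3 arrays per line this check cannot decide whether the numbers pair the arrays. Further choices were added after seeing the data: keeping only genes with T65 above the reporter level gave 45 and 93 genes, and leaving out no names gave 51 and 99. Another, counting only members that reached the level in a line other than slr1, gave 23 rises and 7 falls, and 23 rises and 39 falls. Signals near the reporter level limit what can be said of the dimmest members.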

Other observations

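The 10 genes left out by name also had opposite differences in gid1-3 and gid2-1, 4 of them higher in gid1-3 and 6 higher in gid2-1. The small heat shock gene HSP24.1 averaged 2863 ± 90.3 in gid1-3, 87.7 ± 17.6 in gid2-1 and 3062 ± 92.9 in slr1, against 672 ± 12.9 in T65 (SD, n = 3 each). BURP2, of the BURP-domain family, averaged 2785 ± 194 in gid1-3, 258 ± 55.0 in gid2-1 and 1080.4 ± 222 in slr1, against 606 ± 25.2 in T65. The glutaredoxin gene GRXC1 averaged 662 ± 2.96 in gid1-3, 176 ± 12.2 in gid2-1 and 2574 ± 75.5 in slr1, against 280.0 ± 49.1 in T65, highest in slr1. CLPB-M, a chaperone, averaged 467 ± 42.0 in gid1-3, 41.2 ± 7.21 in gid2-1 and 413 ± 15.4 in slr1, against 303 ± 24.5 in T65.

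Of those higher in gid2-1, the clock gene PCL1 averaged 118 ± 3.08 in gid1-3, 3873 ± 172 in gid2-1 and 11.9 ± 10.9 in slr1, against 481 ± 66.9 in T65, and the clock gene PRR1 931 ± 51.1 in gid1-3, 3499 ± 248 in gid2-1 and 365 ± 35.8 in slr1, against 1392 ± 63.3 in T65. Both had the order of the lines seen in LOC4337388, with slr1 lowest. SAPK9, a protein kinase, averaged 217 ± 34.9 in gid1-3, 2712 ± 119.8 in gid2-1 and 249 ± 23.0 in slr1, against 501 ± 17.04 in T65. The transcription factor gene NAC2 averaged 89.5 ± 21.8 in gid1-3, 698 ± 14.2 in gid2-1 and 287 ± 34.1 in slr1, against 399.6 ± 22.6 in T65. Of the beta-expansins, EXPB6 averaged 187 ± 3.64 in gid1-3, 897 ± 20.7 in gid2-1 and 527 ± 46.7 in slr1, against 382 ± 20.0 in T65, and EXPB18 10.9 ± 7.49 in gid1-3, 204 ± 24.1 in gid2-1 and 181 ± 31.7 in slr1, against 33.9 ± 16.2 in T65, with gid1-3 and T65 below the highest reporter level.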
